A study of Mus musculus with 18 samples.

Results

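Lungs of 3 irradiated C57BL6/J mice were compared with lungs of 3 irradiated C3H/HeJ mice. These 6 arrays were chosen by their titles and strain labels from 18 arrays of mouse lung RNA. C57BL6/J is the labels' spelling of C57BL/6J. Both strains had received 18 Gy of caesium gamma rays to the whole thorax at 8 weeks of age, with the rest of the body behind 3 cm of lead that let through 3% of the beam. Each mouse was killed when it had become moribund, which the protocol defines by weight loss, ruffled fur, fast breathing and a hunched posture. The irradiated C57BL6/J mice were 28 to 30 weeks old, which is 20 to 22 weeks after exposure. The irradiated C3H/HeJ mice were 20 to 22 weeks old, which is 12 to 14 weeks after exposure. Strain, age and time since exposure therefore cannot be told apart among these lungs. Untreated C57BL6/J lungs (3 arrays) and untreated C3H/HeJ lungs (3 arrays), from mice of 15 to 26 weeks, are read beside them. Per the labels' protocols, RNA came from the homogenized right lung, with 1 moribund mouse for each irradiated sample. For the untreated samples the labels do not say that each came from a separate mouse. Their spread enters the shared fit of all 18 arrays. The p-values of every comparison, the irradiated one included, may therefore measure technical spread in part.

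Inbred mouse strains differ in the lung disease that follows thoracic irradiation. C57BL/6J is known for late scarring, in which fibroblasts lay down collagen. C3H/HeJ is known for inflamed air sacs (alveolitis) that appear earlier. Mast cells, which store proteases and histamine in granules, are known to gather in irradiated lung. The comparison asks how the lungs of these strains differ once each has reached end-stage disease. The deposited values are linear signal intensities, which were normalized and are given here as log2 signals. Every difference is C57BL6/J minus C3H/HeJ on that log2 scale, with its standard error. A gene was called when limma's adjusted p, over 12405 genes, was under 0.05.

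The trimmed mean of the deposited signal, a measure of overall brightness, was 71.6 to 95.4 in the irradiated C57BL6/J arrays and 75.1 to 134 in the irradiated C3H/HeJ arrays. The actin 5'/3' ratio, which falls when RNA is degraded, was 0.712 to 0.749 in irradiated C57BL6/J and 0.716 to 0.764 in irradiated C3H/HeJ arrays. Lung identity was clear in all 6 arrays. Sftpb (surfactant protein B) was at 11.57 to 11.74 in irradiated C57BL6/J lungs and 11.22 to 11.38 in irradiated C3H/HeJ lungs. Sftpc, Scgb1a1 and Ager were at 12.68 or more in each of them, near the ceiling that the normalization sets. The Y-linked genes Eif2s3y, Kdm5d and Uty were at 5.56 or more and Xist was at 4.57 to 5.52 in these 6. All 3 Y-linked genes were called lower in C57BL6/J, in irradiated and in untreated lung. With Xist, the median difference was -0.82 in irradiated and -0.95 in untreated lung.

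**Figure D1:**
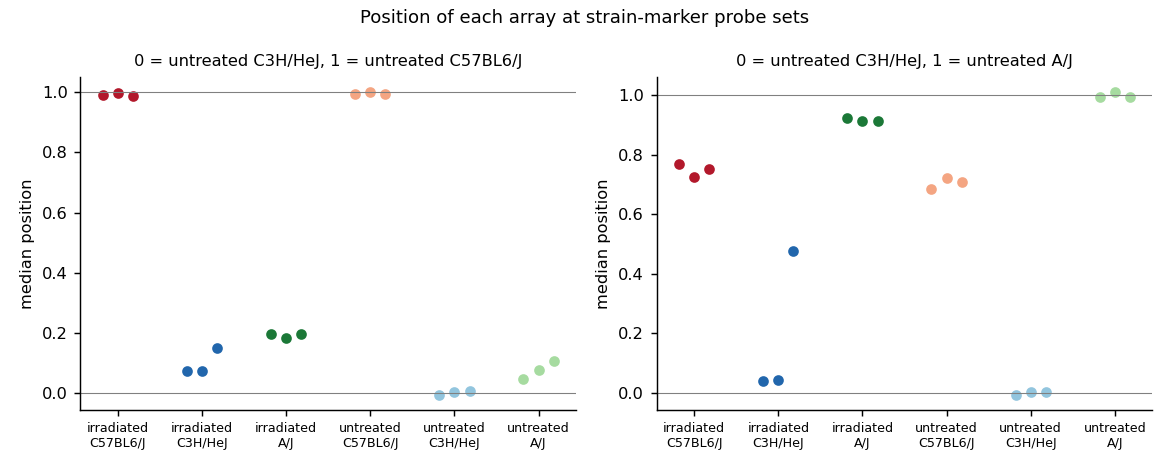
Position of each of the 18 arrays (points, arrays 1 to 3 of a group from left to right) at probe sets that separate untreated strains. The vertical axis is the median position over 148 probe sets (left panel, 1 is untreated C57BL6/J) or 89 probe sets (right panel, 1 is untreated A/J), and 0 is untreated C3H/HeJ in both. Irradiated C3H/HeJ array 3 lies at 0.477 in the right panel, where the other 2 arrays of its group lie at 0.0404 and 0.0419.

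One array stood apart from its strain label. Probe sets that separate the untreated strains cleanly were used to place each array on a scale where untreated C3H/HeJ is 0. On the scale where untreated A/J, the third strain of the series, is 1, irradiated C3H/HeJ arrays 1 and 2 had median positions of 0.0404 and 0.0419, but array 3 was at 0.477. On the scale where untreated C57BL6/J is 1, the irradiated C57BL6/J arrays were at 0.988 to 0.998, and the irradiated C3H/HeJ arrays at 0.0739, 0.0733 and 0.149. Results are therefore also given without irradiated C3H/HeJ array 3. Untreated C57BL6/J arrays 1 and 3 held large amounts of squamous keratin RNA, with Krt4 at 11.52 and 11.75 against 4.43 in array 2, and Krt4 was at 3.06 to 6.13 in the 6 irradiated arrays. Those untreated arrays do not enter the irradiated comparison, but they do enter the comparison with untreated lung.

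Of 12405 genes, 2241 were called between irradiated C57BL6/J and irradiated C3H/HeJ lung, a share of 18.1%. Of these, 1059 (8.54% of genes tested) were higher and 1182 (9.53%) were lower in C57BL6/J, and 503 differed by at least 1 on the log2 scale. Without irradiated C3H/HeJ array 3 the counts were 950 higher and 942 lower. Without irradiated C57BL6/J array 3 the total was 1389, and without irradiated C3H/HeJ array 1 it was 1461. A fit on the 2 irradiated groups alone called 1622 genes, 767 higher and 855 lower. The 2 sets of 3 arrays did not overlap for 4547 genes (36.7%), which included 2155 of the 2241 calls. Over all genes the median difference was -0.05. Deposited signals with no scaling between arrays gave 121 higher and 501 lower calls around a median of -0.33. Centring each array on its median gave 526 higher and 1756 lower calls around a median of -0.19. The balance of higher and lower calls thus depends on the scaling. Differences are read below against the median of all genes, and counts of called list members against the 18.1% called.

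Untreated lungs of these strains differed for 1346 genes (10.9%), of which 744 (6.0%) were higher and 602 (4.85%) lower in C57BL6/J. With no scaling the untreated counts were 383 higher and 64 lower, and with median centring 548 higher and 250 lower. The same direction was called in irradiated and untreated lung for 669 genes, which is 29.85% of the irradiated calls and 49.7% of the untreated calls. The opposite direction was called for 16 genes, and 1556 irradiated calls were not called in untreated lung. A test of the difference itself, irradiated strain difference minus untreated strain difference, called 200 genes (1.61%), 74 of them higher (0.597%) and 126 lower (1.02%). With no scaling these were 9 higher and 210 lower, and with median centring 29 higher and 209 lower. Of those 200, 126 were called in irradiated lung only, 82 with the higher level in irradiated C3H/HeJ and 44 with the higher level in irradiated C57BL6/J. Leaving out the untreated arrays high in squamous keratins leaves 1 untreated C57BL6/J array, too few for a count of calls to be read. Their part in the count could therefore not be tested. The count moved with irradiated C57BL6/J array 1, without which it was 373, and with several other arrays, given at the end.

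**Figure D2:**
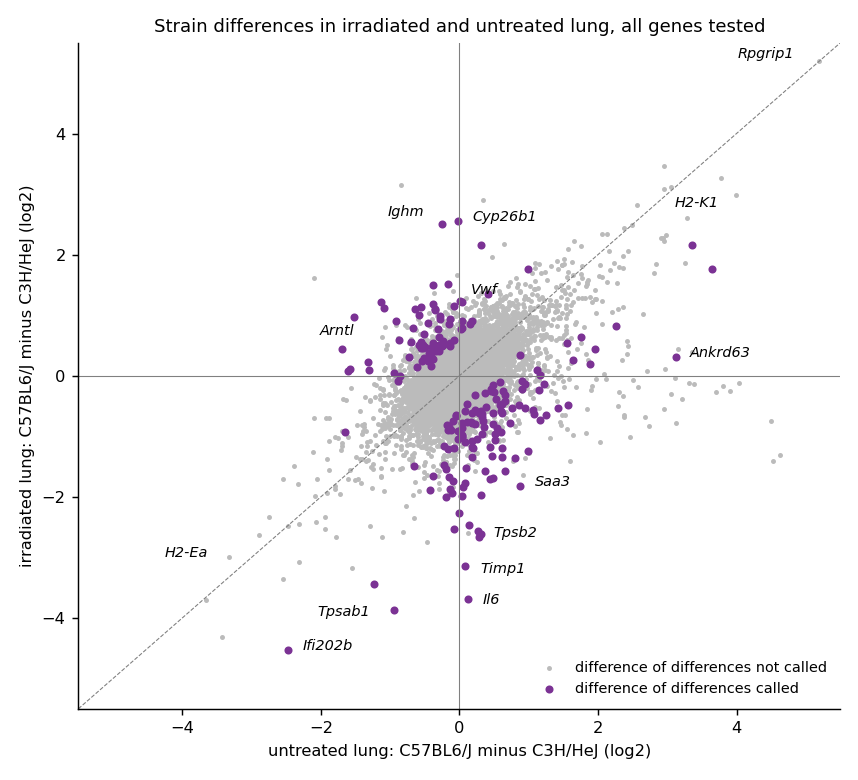
Strain difference in untreated lung (horizontal axis, log2) against strain difference in irradiated lung (vertical axis, log2) for the 12405 genes tested, C57BL6/J minus C3H/HeJ on both. Purple points are the 200 genes whose 2 differences differ from each other at an adjusted p under 0.05. Il6, Timp1 and Tpsb2 lie near 0 on the horizontal axis and far below 0 on the vertical one, while Rpgrip1 lies on the dashed line of equal differences.

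Mast cell protease genes were lower in irradiated C57BL6/J lung. Of 11 genes tested, 6 were lower and 1 higher in C57BL6/J, with a median of -1.84 against -0.05 over all genes. In untreated lung none of the 11 was called and their median was -0.03. The mean level of the list was 5.17 to 5.61 in irradiated C57BL6/J arrays and 6.55 to 7.32 in irradiated C3H/HeJ arrays, against 4.84 to 5.17 in untreated C57BL6/J arrays and 4.93 to 5.12 in untreated C3H/HeJ arrays. All called members that were lower encode granule proteases. In bulk tissue, fewer cells of a type and less RNA per cell cannot be told apart.

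Tpsab1, which encodes a tryptase, had log2 signals of 4.24, 3.33 and 3.26 in irradiated C57BL6/J lungs, against 7.46, 7.29 and 7.69 in irradiated C3H/HeJ lungs. The groups were far apart, and the C57BL6/J values lay in the range of untreated lung over both strains, 3.08 to 5.13. The difference was -3.87 ± 0.34, a 14.6-fold lower level (limma adjusted p = 2.3e-06). Whether a difference in Tpsab1 sequence between the strains has a part in it was not tested. Tpsb2, the second tryptase, was at 5.42, 4.67 and 3.96 in irradiated C57BL6/J lungs and at 7.15, 7.24 and 7.66 in irradiated C3H/HeJ lungs, a difference of -2.66 ± 0.34 (limma adjusted p = 9.6e-05). Both tryptase differences also differed from those of untreated lung, by -2.92 for Tpsab1 and -2.95 for Tpsb2 (limma adjusted p = 0.00703 for each). The chymase Mcpt4 was at 5.82, 4.43 and 3.82 in irradiated C57BL6/J lungs, against 7.07, 7.27 and 8.00 in irradiated C3H/HeJ lungs. In Tpsab1, Tpsb2 and Mcpt4 C57BL6/J array 1 was the highest of its group and still lay below every C3H/HeJ array. Mcpt2, another chymase, differed by -2.45 ± 0.47 and the chymase Cma1 by -2.0 ± 0.29.

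Cpa3 (mast cell carboxypeptidase) was at 6.50, 5.55 and 5.49 in irradiated C57BL6/J lungs and at 7.16, 7.59 and 8.31 in irradiated C3H/HeJ lungs. Its difference of -1.84 ± 0.47 was called (limma adjusted p = 0.0131), but not without C3H/HeJ array 3 (difference -1.52, limma adjusted p = 0.0573) or without C57BL6/J array 2 or 3. The genes of the surface receptors did not pass the test. Fcer1a and Ms4a2, subunits of the IgE receptor, differed by -1.16 and -1.07. Kit, the receptor for stem cell factor, also made by other lung cells, was at 5.78, 6.67 and 6.84 in irradiated C57BL6/J against 6.49, 6.43 and 7.21 in irradiated C3H/HeJ, and these groups overlapped (difference -0.28). Hdc, which makes histamine, was the called member that was higher in C57BL6/J, by 1.08. Without C3H/HeJ array 3, 5 members were lower and 1 higher.

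**Figure D3:**
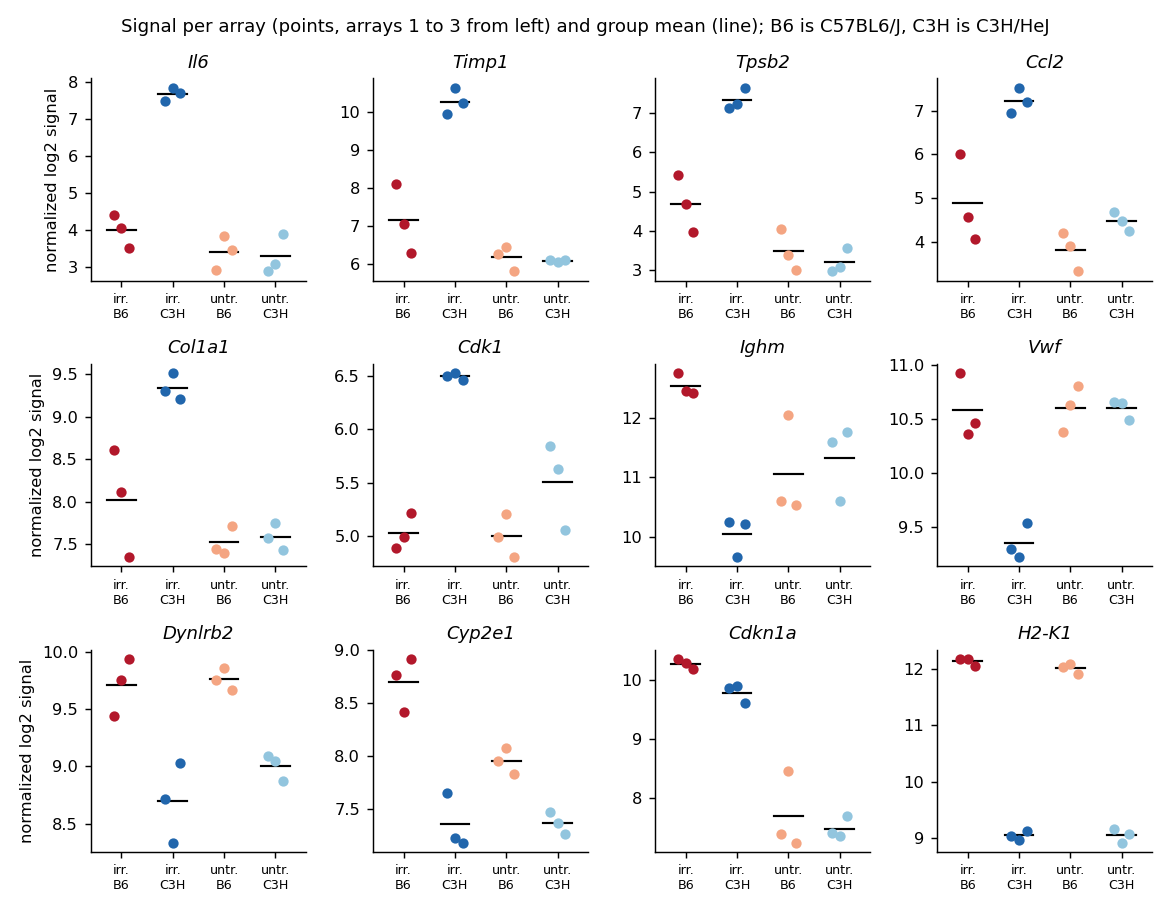
Normalized log2 signal of 12 genes in each array (points) with the group mean (line). From left to right in each panel, the groups are irradiated C57BL6/J, irradiated C3H/HeJ, untreated C57BL6/J and untreated C3H/HeJ, with 3 arrays each. Il6, Timp1 and Tpsb2 are high in the 3 irradiated C3H/HeJ arrays, Ighm is highest in irradiated C57BL6/J, and H2-K1 separates the strains in both states.

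Several inflammatory cytokine genes were lower in irradiated C57BL6/J lung. Of 18 tested genes of the interleukin-6 and interleukin-1 families and their signalling, 9 were lower and 1 higher, with a median of -0.77. In untreated lung 3 were lower and none higher, with a median of -0.04. Il6, which encodes the cytokine that drives acute-phase responses, was at 4.40, 4.06 and 3.50 in irradiated C57BL6/J lungs, against 7.48, 7.84 and 7.68 in irradiated C3H/HeJ lungs. Untreated lungs ranged from 2.91 to 3.84 in C57BL6/J and from 2.88 to 3.89 in C3H/HeJ, so irradiated C3H/HeJ alone of the 4 groups had a high level. The irradiated difference was -3.68 ± 0.41, or 12.8-fold (limma adjusted p = 2.56e-05). Relative to the untreated difference of 0.12 it was lower, by a difference of -3.80 (limma adjusted p = 0.00618), the lowest value among the 200 genes called by that test.

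Socs3, a feedback inhibitor that interleukin-6 signalling switches on, was at 8.48, 7.89 and 7.43 in irradiated C57BL6/J lungs and at 9.45, 9.25 and 9.09 in irradiated C3H/HeJ lungs. Its difference was -1.34 ± 0.19 (limma adjusted p = 0.000242), without overlap. Il1b, which encodes the inflammasome product interleukin-1 beta, was at 6.31, 6.28 and 6.37 in irradiated C57BL6/J against 7.33, 8.21 and 8.12 in irradiated C3H/HeJ, a difference of -1.57 ± 0.32. Il1rn, whose product blocks the interleukin-1 receptor, differed by -1.30 ± 0.25. The member that was higher in C57BL6/J was Il6ra, the interleukin-6 receptor, by 0.69, a call lost without C57BL6/J array 2 or C3H/HeJ array 3. Without C3H/HeJ array 3, 11 members were lower and none higher.

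Chemokines, the secreted proteins that draw leukocytes into tissue, were called mostly in the same direction. Of 24 tested, 11 were lower and 1 higher in irradiated C57BL6/J, with a median of -0.70. In untreated lung 2 were lower and 2 higher, with a median of -0.08. Ccl2, which attracts monocytes, was at 6.02, 4.58 and 4.07 in irradiated C57BL6/J lungs, against 6.95, 7.53 and 7.21 in irradiated C3H/HeJ lungs. Array 1 of C57BL6/J came closest to the other strain, and the groups did not overlap (difference -2.34 ± 0.44, limma adjusted p = 0.00201). Ccl7, another monocyte attractant, was at 4.85, 4.03 and 4.19 in irradiated C57BL6/J against 6.39, 6.36 and 6.28 in irradiated C3H/HeJ (difference -1.99 ± 0.32). Ccl24, an attractant of eosinophils, was at 4.38, 3.02 and 3.00 in irradiated C57BL6/J against 5.45, 6.33 and 6.44 in irradiated C3H/HeJ (difference -2.61 ± 0.38). Cxcl2, which attracts neutrophils, was at 4.26, 4.03 and 3.86 in irradiated C57BL6/J against 5.07, 6.21 and 6.46 in irradiated C3H/HeJ (difference -1.87 ± 0.31). None of these 4 chemokines overlapped between irradiated strains, as in 2155 of the 2241 irradiated calls. The differences of Ccl7 and Ccl24 also differed from those of untreated lung. Ccl5, made by T cells among others, was the member higher in C57BL6/J (difference 1.15), a call lost when any 1 of the 6 irradiated arrays was left out. Cxcl9, an interferon gamma target, was at 6.19, 5.49 and 5.96 in irradiated C57BL6/J lungs and 6.16, 6.22 and 5.97 in irradiated C3H/HeJ lungs, and was not called. Without C3H/HeJ array 3, 9 chemokines were lower and none higher.

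The promoters of Il6 and Cxcl2 are shown because both genes were called lower in irradiated C57BL6/J and because the nuclear factor kappa B family is known to act at such genes. The sequences run from 250 bases before to 50 bases after the RefSeq start on build GRCm38.p6, 5' to 3' on the gene's strand. Capitals mark matches, on either strand, to a kappa B motif searched as GGG and TTCC with any 3 bases between them.
Il6, chr5:30012864-30013163, plus strand: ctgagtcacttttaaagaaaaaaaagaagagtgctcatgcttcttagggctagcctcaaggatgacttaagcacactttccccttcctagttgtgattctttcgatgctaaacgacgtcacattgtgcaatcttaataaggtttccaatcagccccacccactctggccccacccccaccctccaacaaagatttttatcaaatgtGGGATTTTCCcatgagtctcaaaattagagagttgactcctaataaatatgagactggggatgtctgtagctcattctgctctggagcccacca
Cxcl2, chr5:90903649-90903948, plus strand: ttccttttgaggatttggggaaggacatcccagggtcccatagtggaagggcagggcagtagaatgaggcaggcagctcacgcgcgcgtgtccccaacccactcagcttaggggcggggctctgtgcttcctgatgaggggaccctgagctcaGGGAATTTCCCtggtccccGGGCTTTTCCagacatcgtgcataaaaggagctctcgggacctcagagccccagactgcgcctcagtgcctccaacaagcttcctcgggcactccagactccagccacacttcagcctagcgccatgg
Il6 held 1 match and Cxcl2 held 3, of which a pair overlaps on opposite strands. A match stood in 5 of the 17 chemokine promoters found (29.4%) and in 1493 of all 27025 promoters (5.52%). A match is a run of letters and says nothing of whether a factor was bound.

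Macrophage and acute-phase genes moved less evenly. Among all genes tested 18.1% were called, 9.53% lower and 8.54% higher. Of 11 tested genes linked to alternative activation of macrophages, 7 were lower and 1 higher in irradiated C57BL6/J, with a median of -0.96. Of 19 general macrophage genes 3 were lower and none higher, with a median of -0.47, and 17 of the 19 differences were below 0. With no scaling 6 of the 19 were lower, and with median centring 8. The mean level of the macrophage list was 7.68 to 8.88 in irradiated C57BL6/J arrays and 8.69 to 8.98 in irradiated C3H/HeJ arrays, so array 1 of C57BL6/J lay within the C3H/HeJ range. The part of macrophage content in the cytokine and chemokine differences was not tested. Mgl2, a lectin of alternatively activated macrophages, was at 6.26, 6.79 and 6.40 in irradiated C57BL6/J lungs, against 7.92, 7.62 and 7.55 in irradiated C3H/HeJ lungs (difference -1.21 ± 0.16). Chil3, a chitinase-like secreted protein, ran the other way, at 12.41, 11.81 and 11.49 in irradiated C57BL6/J against 10.53, 10.29 and 11.00 in irradiated C3H/HeJ (difference 1.30 ± 0.34), and its untreated difference was of like size. That call was lost without C57BL6/J array 1 or without C3H/HeJ array 1 or 2. Retnla, a further gene of this list, was at 10.66 to 11.48 in irradiated C57BL6/J and 11.26 to 11.58 in irradiated C3H/HeJ, and was not called.

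Arg1 (arginase 1) showed how far single lungs could differ. It was at 8.97, 4.91 and 4.78 in irradiated C57BL6/J lungs and at 5.00, 6.46 and 7.74 in irradiated C3H/HeJ lungs, with the highest and the lowest value both in C57BL6/J. Marco, a scavenger receptor, differed by -2.59 ± 0.70 (limma adjusted p = 0.0179) but was not called without C3H/HeJ array 3 (difference -2.07, limma adjusted p = 0.0791) or without C57BL6/J array 2 or 3. Neutrophil genes gave 2 lower and 1 higher of 13 in irradiated lung (median -0.24), against none lower and 4 higher in untreated lung (median 0.86). S100a8, an abundant neutrophil protein, was at 10.52, 10.35 and 10.74 in irradiated C57BL6/J lungs and 10.41, 10.54 and 10.67 in irradiated C3H/HeJ lungs, with a difference of -0.00. Of 11 acute-phase genes, 2 were lower. The neutrophil and acute-phase counts stand beside the 18.1% called among all genes. Saa3, a serum amyloid A made in lung, was at 9.51, 8.19 and 7.76 in irradiated C57BL6/J lungs, against 10.10, 10.36 and 10.46 in irradiated C3H/HeJ lungs (difference -1.82 ± 0.33). Its untreated difference was 0.88 in the other direction, and the 2 differences differed by -2.70 (limma adjusted p = 0.00972). Serpina3n, a protease inhibitor of the acute phase, differed by -1.33 ± 0.25 in irradiated lung.

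Many genes of the extracellular matrix were lower in irradiated C57BL6/J, the strain known for scarring, than in irradiated C3H/HeJ. Among fibrillar collagens and the proteins that process and crosslink them, 11 of 14 tested genes were lower and none higher, with a median of -0.71. All 14 differences were below 0, and 11 were also lower without C3H/HeJ array 3. With no scaling 6 were lower. In untreated lung 1 was lower and none higher (median -0.23), and no member was called by the test between irradiated and untreated differences. Col1a1, which encodes a chain of type I collagen, was at 8.62, 8.11 and 7.35 in irradiated C57BL6/J lungs, against 9.31, 9.52 and 9.21 in irradiated C3H/HeJ lungs. Untreated lungs of both strains lay at 7.40 to 7.75, so C57BL6/J array 3 lay just below the untreated range and arrays 1 and 2 lay between that range and C3H/HeJ. The difference was -1.32 ± 0.23 (limma adjusted p = 0.00104). Col3a1, the chain of type III collagen, was at 11.36, 10.96 and 10.32 in irradiated C57BL6/J against 12.04, 12.19 and 11.96 in irradiated C3H/HeJ (difference -1.18 ± 0.18). Col5a2, a chain of type V collagen, which sets fibril width, was at 9.64, 8.87 and 8.15 in irradiated C57BL6/J against 10.45, 10.71 and 10.42 in irradiated C3H/HeJ (difference -1.64 ± 0.25). In each of the 3 collagens the C57BL6/J arrays were spread more widely than the C3H/HeJ arrays and did not reach them. Serpinh1, the collagen chaperone, differed by -0.82 ± 0.13.

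Basement membrane genes gave 9 lower and none higher of 18 (median -0.44), led by Col18a1 (difference -1.65 ± 0.19) and Col15a1 (difference -1.5 ± 0.29). In untreated lung 3 were lower and none higher (median -0.33), and the median of the irradiated minus untreated differences was -0.05. With no scaling 4 were lower in irradiated lung. Of 23 matricellular and elastic fibre genes, 12 were lower and 1, Ogn (osteoglycin), was higher, with a median of -0.58. Tnc, which encodes tenascin C, a protein of healing tissue, was at 7.0, 5.74 and 5.26 in irradiated C57BL6/J lungs, against 8.31, 9.01 and 8.68 in irradiated C3H/HeJ lungs (difference -2.67 ± 0.36). Fn1 (fibronectin) was at 10.88, 10.40 and 10.08 in irradiated C57BL6/J against 11.50, 11.51 and 11.50 in irradiated C3H/HeJ, a difference of -1.05 ± 0.15. The 3 C3H/HeJ values of Fn1 were nearly equal, while the C57BL6/J values were spread below them.

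Among 22 matrix proteases and their inhibitors, 9 were lower and none higher (median -0.38), and 5 of the 22 were also lower by the test against the untreated difference. Timp1, an inhibitor of matrix metalloproteases, was at 8.10, 7.05 and 6.28 in irradiated C57BL6/J lungs, against 9.95, 10.66 and 10.24 in irradiated C3H/HeJ lungs. Untreated lungs of both strains lay at 5.79 to 6.45. The difference was -3.14 ± 0.35, an 8.80-fold lower level (limma adjusted p = 2.53e-05), and it differed from that of untreated lung by -3.23 (limma adjusted p = 0.00618). Adamts4, a protease that cuts proteoglycans, differed by -2.46 ± 0.33 and Mmp8, a neutrophil collagenase, by -1.70 ± 0.21. Mmp12, the macrophage elastase, was at 9.06, 8.01 and 6.70 in irradiated C57BL6/J lungs and 8.04, 7.73 and 8.09 in irradiated C3H/HeJ lungs. These groups overlapped (difference -0.03), with the highest and the lowest of the 6 values in C57BL6/J.

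Genes of contractile cells and of TGF-beta signalling were read beside the matrix. Of 14 smooth muscle and myofibroblast genes, 7 were lower and none higher in irradiated C57BL6/J (median -0.48), and none was called in untreated lung (median -0.04). The mean level of that list was 7.54 to 7.96 in irradiated C57BL6/J arrays and 8.07 to 8.21 in irradiated C3H/HeJ arrays. Its part in the matrix differences was not tested. Des (desmin), an intermediate filament of muscle, was at 6.73, 6.80 and 7.51 in irradiated C57BL6/J against 7.83, 8.12 and 7.66 in irradiated C3H/HeJ, without overlap (difference -0.85 ± 0.20). Skeletal muscle genes were uneven among arrays. Their mean was 4.82, 4.92 and 6.31 in irradiated C57BL6/J and 6.42, 5.08 and 5.11 in irradiated C3H/HeJ. In untreated C57BL6/J it was 8.29, 4.87 and 8.15. The part of such RNA in the Des difference was not tested. Of 24 genes of TGF-beta and BMP signalling, 5 were lower and 4 higher, with a median of -0.11, close to that of all genes. Tgfb1, the ligand most tied to fibrosis, was at 7.83, 7.80 and 7.5 in irradiated C57BL6/J lungs and 7.91, 8.27 and 7.88 in irradiated C3H/HeJ lungs (difference -0.30, limma adjusted p = 0.458). Acvrl1, an endothelial receptor of this family, was higher by 1.23 ± 0.27, and Tgfb2, a second ligand, was lower by a difference of -0.69 ± 0.15. Inhba, which encodes an activin subunit, differed by -1.32 ± 0.41, a call lost without any 1 of 5 arrays.

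**Figure D4:**
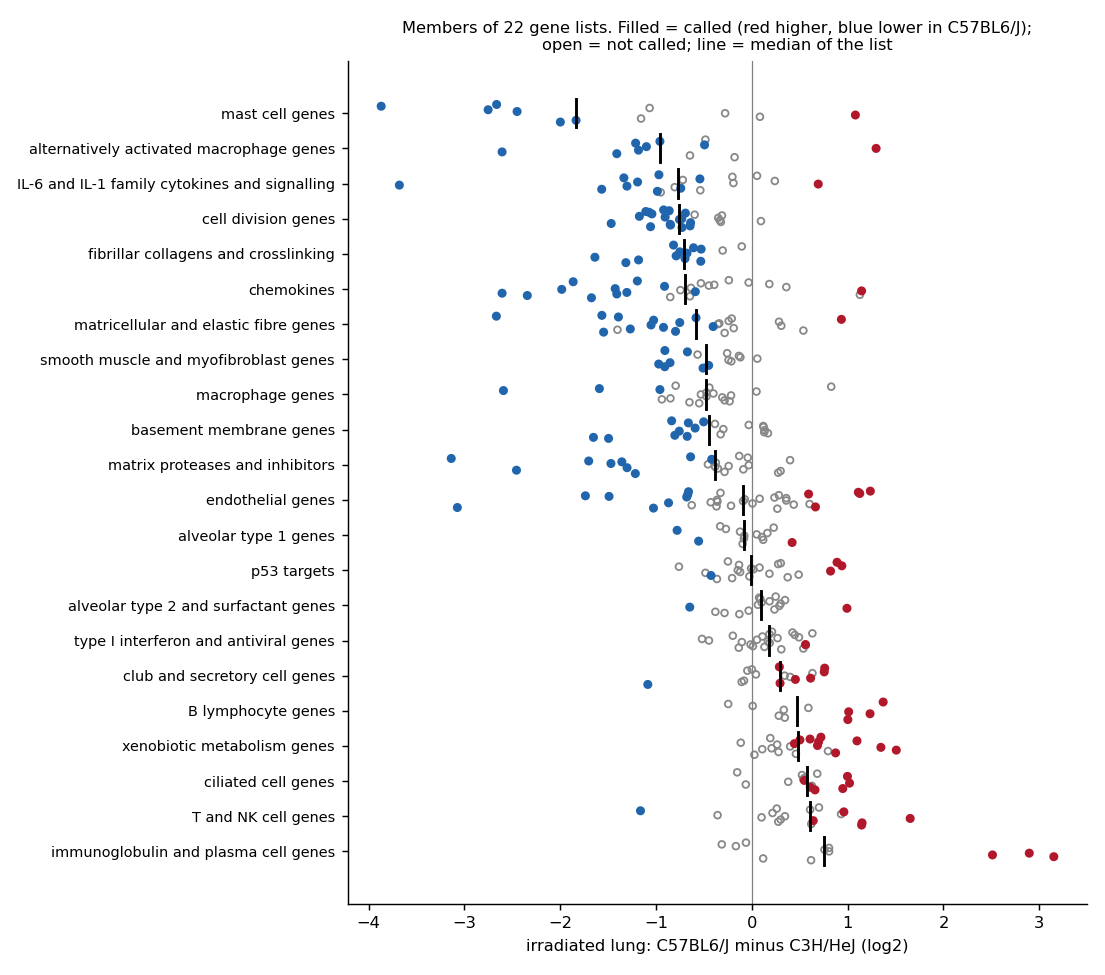
Difference between irradiated C57BL6/J and irradiated C3H/HeJ lung (horizontal axis, log2) for the tested members of 22 gene lists (rows). Filled points passed the limma test (red higher, blue lower in C57BL6/J), open points did not, and the line is the median of the list. Medians range from -1.84 for mast cell genes to 0.76 for immunoglobulin and plasma cell genes.

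Cell division genes were lower in irradiated C57BL6/J lung. Of 23 tested, 17 were lower and none higher, with a median of -0.76, and 22 of the 23 differences were below 0. In untreated lung 1 was higher and none lower (median -0.14). Without C3H/HeJ array 3, 15 were lower, and with no scaling 11 were. Cdk1, the kinase that starts mitosis, was at 4.88, 4.99 and 5.22 in irradiated C57BL6/J lungs, against 6.50, 6.53 and 6.47 in irradiated C3H/HeJ lungs. The 3 arrays of each strain lay close together and far from the other strain (difference -1.47 ± 0.19, limma adjusted p = 0.000101). Top2a, the topoisomerase of dividing cells, was at 5.48, 6.39 and 5.93 in irradiated C57BL6/J against 6.97, 7.16 and 6.99 in irradiated C3H/HeJ (difference -1.11 ± 0.22). Rrm2, which makes deoxynucleotides, was at 5.89, 6.59 and 6.07 in irradiated C57BL6/J against 7.15, 7.29 and 7.34 in irradiated C3H/HeJ (difference -1.07 ± 0.17). Nusap1, a spindle protein, differed by -1.17 ± 0.23 in irradiated lung, and relative to the untreated difference by -1.35 (limma adjusted p = 0.0493). Mki67, the usual marker of dividing cells, differed by -0.91 ± 0.24 (limma adjusted p = 0.0178), and that call was lost without C57BL6/J array 1 or 3 or without C3H/HeJ array 2.

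The promoters of Cdk1 and Ccnb2 (cyclin B2) are shown because these partners of the mitotic kinase moved together, and because the promoters of mitotic genes are known for paired elements of this kind. Ccnb2 itself was at 5.34, 5.96 and 5.11 in irradiated C57BL6/J lungs, against 6.31, 6.42 and 6.23 in irradiated C3H/HeJ lungs (difference -0.85 ± 0.20). Capitals mark matches on either strand to TTTGAA, the letters of the cell cycle homology region, and to the CCAAT box, neither of which overlaps the other here.
Cdk1, chr10:69352863-69353162, minus strand: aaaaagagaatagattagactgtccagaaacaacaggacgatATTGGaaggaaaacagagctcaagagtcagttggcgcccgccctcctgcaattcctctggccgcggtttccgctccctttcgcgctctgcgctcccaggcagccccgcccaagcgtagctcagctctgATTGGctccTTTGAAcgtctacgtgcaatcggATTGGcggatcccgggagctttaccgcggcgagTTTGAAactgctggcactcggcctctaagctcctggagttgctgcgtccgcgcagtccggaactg
Ccnb2, chr9:70421505-70421804, minus strand: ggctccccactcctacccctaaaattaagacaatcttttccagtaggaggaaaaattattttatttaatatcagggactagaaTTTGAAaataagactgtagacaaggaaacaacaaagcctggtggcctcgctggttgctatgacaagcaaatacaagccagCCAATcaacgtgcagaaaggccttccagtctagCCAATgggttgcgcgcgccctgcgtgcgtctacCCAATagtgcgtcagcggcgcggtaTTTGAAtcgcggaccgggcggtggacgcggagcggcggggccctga
Each of these promoters held 2 matches to TTTGAA and 3 to the CCAAT box. The first motif stood in 12 of 21 cell division promoters (57.1%) and in 18.1% of all 27025. The CCAAT box stood in 18 of the 21 (85.7%) and in 37.9% of all. The letters alone do not show that these elements are in use in lung.

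Targets of p53, the factor that radiation damage activates, were close to even between the irradiated strains. Of 21 tested, 3 were higher and 1 lower in C57BL6/J, with a median of -0.01, beside 18.1% called among all genes. Cdkn1a, which encodes the cell cycle inhibitor p21, was at 10.35, 10.29 and 10.18 in irradiated C57BL6/J lungs and at 9.86, 9.89 and 9.61 in irradiated C3H/HeJ lungs. These values did not overlap, as held for 36.7% of all genes tested. All lay above the 7.25 to 8.46 of untreated lungs of both strains. The difference of 0.49 ± 0.28 was not called (limma adjusted p = 0.248). Trp53inp1, which takes part in p53-driven death and autophagy, was higher by 0.89 ± 0.15. Fas, a death receptor, was at 8.11, 7.80 and 8.24 in irradiated C57BL6/J against 7.10, 7.44 and 7.14 in irradiated C3H/HeJ (difference 0.82 ± 0.17), and Pmaip1 (Noxa) was higher by 0.94 ± 0.21.

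Some lymphocyte and antibody genes were higher in irradiated C57BL6/J lung, while most listed members did not pass the test. Of 11 immunoglobulin and plasma cell genes, 3 were higher and none lower, with a median of 0.76, against a median of -0.33 in untreated lung. Of 10 B lymphocyte genes, 4 were higher and none lower (median 0.47). Of 17 T and NK cell genes, 5 were higher and 1 lower (median 0.61), with 4 higher and 1 lower in untreated lung as well (median 0.38). Without C3H/HeJ array 3, 3 of the T and NK cell genes and 3 of the B lymphocyte genes were higher. With no scaling 1 B lymphocyte gene was higher, and 1 T and NK cell gene was higher and 1 lower, while 3 antibody genes were higher.

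Ighm, the heavy chain of IgM, was at 12.76, 12.46 and 12.43 in irradiated C57BL6/J lungs, against 10.24, 9.66 and 10.21 in irradiated C3H/HeJ lungs (difference 2.51 ± 0.36, limma adjusted p = 0.000264). Untreated lungs overlapped, at 10.54 to 12.05 in C57BL6/J and 10.60 to 11.77 in C3H/HeJ, and the irradiated difference exceeded the untreated one by 2.77 (limma adjusted p = 0.0142). Its 7 other probe sets differed by 0.86 to 8.62, all in the same direction. Immunoglobulin genes have strain-specific alleles, so the size of such differences cannot be told apart from differences in sequence under the probes. Ighg3, the heavy chain of IgG3, was at 9.83, 9.97 and 8.06 in irradiated C57BL6/J against 5.45, 5.22 and 7.74 in irradiated C3H/HeJ, with C3H/HeJ array 3 close to C57BL6/J. Its difference was 3.15 ± 0.72, and 3.95 without that array. Jchain, which joins IgM and IgA into polymers, was at 11.72, 11.61 and 11.54 in irradiated C57BL6/J against 9.75, 11.07 and 11.63 in irradiated C3H/HeJ, which overlapped, and was not called (difference 0.81).

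The B cell surface genes were lower in level than Ighm. Ms4a1 (CD20) was at 7.39, 7.72 and 7.09 in irradiated C57BL6/J lungs, against 6.46, 6.24 and 5.40 in irradiated C3H/HeJ lungs (difference 1.37 ± 0.31). Cd79a, a signalling chain of the B cell receptor, was at 7.27, 7.90 and 7.19 in irradiated C57BL6/J against 6.26, 6.53 and 5.88 in irradiated C3H/HeJ (difference 1.23 ± 0.27). Cd3d, a chain of the T cell receptor complex, was at 7.11, 7.04 and 6.86 in irradiated C57BL6/J against 6.12, 5.71 and 5.72 in irradiated C3H/HeJ (difference 1.15 ± 0.21). Cd8b1, a coreceptor of cytotoxic T cells, differed by 1.65 ± 0.32, beside 2.01 in untreated lung. Ncr1, a receptor of NK cells, was the T and NK cell gene that was lower (difference -1.16 ± 0.21), beside -1.33 in untreated lung.

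Few members of the interferon lists were called. Of 23 type I interferon and antiviral genes, 1 (Ifit3, difference 0.56) was higher. That call was lost when any 1 irradiated array was left out. The median of these 23 was 0.18 against -0.05 over all genes, or -0.13 against -0.33 with no scaling between arrays. Of 12 interferon gamma targets, 2 were higher and none lower (median 0.18), as in untreated lung (median 0.30). Without C3H/HeJ array 3, 1 of them was higher and 1 lower, and with no scaling none was called. Of 3 genes of the Ifi200 cluster, 2 were lower and none higher (median -0.78), against 1 lower in untreated lung (median 0.26), and 1 was lower by the test against the untreated difference. Without C3H/HeJ array 3, or with no scaling, 1 of the 3 was lower in irradiated lung. Ifi202b, a DNA sensor of the Ifi200 cluster known to vary among inbred strains, was at 2.89, 3.06 and 2.88 in irradiated C57BL6/J lungs, against 7.12, 7.56 and 7.71 in irradiated C3H/HeJ lungs. It was also low in untreated C57BL6/J (2.88 to 2.99) and higher in untreated C3H/HeJ (5.05 to 5.74). The irradiated difference of -4.52 ± 0.23 was the lowest of all called genes named here, and relative to the untreated difference it was lower still, by a difference of -2.04 (limma adjusted p = 0.00686). Gbp2b, a guanylate-binding protein in none of these lists, was at 4.12, 3.82 and 3.46 in irradiated C57BL6/J against 7.43, 7.59 and 7.48 in irradiated C3H/HeJ (difference -3.70 ± 0.18), and its untreated difference of -3.65 was nearly the same size. Ifi44l, also in none of the lists, differed by -3.18 ± 0.34 in irradiated and -1.55 in untreated lung.

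MHC genes differed by strain in both states. H2-K1, a class I heavy chain, was at 12.18, 12.17 and 12.05 in irradiated C57BL6/J lungs, against 9.04, 8.97 and 9.13 in irradiated C3H/HeJ lungs (difference 3.09 ± 0.10), with 2.96 in untreated lung. H2-D1 was at 11.71, 11.77 and 11.61 in irradiated C57BL6/J against 7.45, 7.43 and 11.24 in irradiated C3H/HeJ, so that C3H/HeJ array 3 lay with C57BL6/J. The irradiated A/J arrays had 11.13, 11.39 and 11.60 for H2-D1. Other H2-D1 probe sets differed by -5.32 to 3.84, so its direction is uncertain. H2-Ea, a class II chain that C57BL/6J is known not to make, was at 3.57, 3.43 and 3.86 in irradiated C57BL6/J against 7.16, 6.75 and 5.94 in irradiated C3H/HeJ (difference -3.0 ± 0.30). The strains carry different MHC alleles, and probe sequence and RNA level cannot be told apart for these genes. Of 12 class I and processing genes, 5 were higher and none lower, and H2-K1 and H2-D1 are 2 of those 5. With no scaling 2 of the 12 were higher, and with median centring 3. Tap1, a peptide transporter, was higher by 0.87 ± 0.16, a call that was lost with no scaling (difference 0.56, limma adjusted p = 0.394). Of 9 class II genes, 1 was higher and 1 lower.

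Endothelial genes had calls in both directions. Of 31 tested, 5 were higher and 8 lower in irradiated C57BL6/J, with a median of -0.09, and in untreated lung none was higher and 4 were lower (median -0.32). With no scaling between arrays none was higher and 5 were lower, and with median centring 2 were higher and 10 lower, so the higher calls depend on the scaling. Selp (P-selectin), which lets leukocytes roll on the vessel wall, was at 5.43, 5.30 and 5.30 in irradiated C57BL6/J lungs, against 6.96, 7.30 and 6.98 in irradiated C3H/HeJ lungs, while untreated lungs of both strains lay at 5.16 to 5.68. Its difference was -1.74 ± 0.19 (limma adjusted p = 2.08e-05), and -1.65 beyond the untreated one (limma adjusted p = 0.00703). Sele (E-selectin) differed by -1.49 ± 0.35, a call lost without C57BL6/J array 3. Aplnr, the apelin receptor, was at 5.51, 6.95 and 5.69 in irradiated C57BL6/J against 8.68, 9.06 and 9.63 in irradiated C3H/HeJ (difference -3.07 ± 0.37), beside an untreated difference of -2.31.

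Vwf (von Willebrand factor), which binds platelets, ran the other way. It was at 10.92, 10.36 and 10.46 in irradiated C57BL6/J lungs, against 9.29, 9.22 and 9.53 in irradiated C3H/HeJ lungs (difference 1.24 ± 0.17, limma adjusted p = 0.00014). Untreated lungs of both strains were at 10.38 to 10.80, so irradiated C3H/HeJ alone was low, and the test against untreated lung was passed (difference of differences 1.23, limma adjusted p = 0.0166). Tek, the angiopoietin receptor, was at 7.55, 8.17 and 7.97 in irradiated C57BL6/J against 7.14, 7.11 and 7.67 in irradiated C3H/HeJ, with overlap, and its call (difference 0.59 ± 0.18) was lost without any 1 of 4 arrays. Pecam1, the general endothelial marker, was at 9.44, 10.14 and 9.91 in irradiated C57BL6/J against 9.78, 9.76 and 9.70 in irradiated C3H/HeJ and was not called (difference 0.08).

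Some genes of airway epithelium and of xenobiotic metabolism were higher in irradiated C57BL6/J. Of 20 xenobiotic metabolism genes, 10 were higher and none lower, with a median of 0.48 against 0.19 in untreated lung. Of 14 ciliated cell genes, 6 were higher and none lower (median 0.58, untreated 0.27), and of 15 club and secretory cell genes, 6 were higher and 1 lower (median 0.29, untreated 0.21). These calls depend on scaling. With no scaling between arrays 1 xenobiotic gene, no ciliated gene and no club cell gene was higher, although the medians stayed above 0 at 0.22, 0.30 and 0.10 while that of all genes was -0.33.

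Cyp2e1, a cytochrome P450 that oxidizes small solvents, was at 8.76, 8.41 and 8.92 in irradiated C57BL6/J lungs, against 7.64, 7.23 and 7.18 in irradiated C3H/HeJ lungs (difference 1.35 ± 0.20, limma adjusted p = 0.000268). Gsta3, a glutathione transferase, was at 10.10, 9.91 and 9.90 in irradiated C57BL6/J against 8.99, 8.72 and 8.91 in irradiated C3H/HeJ (difference 1.10 ± 0.13). Cyp1a1, the classic target of the aryl hydrocarbon receptor, was at 4.90, 5.97 and 5.76 in irradiated C57BL6/J against 3.38, 4.13 and 4.59 in irradiated C3H/HeJ (difference 1.51 ± 0.41), while the receptor gene Ahr did not differ beyond its spread in irradiated lung (difference 0.03). The Cyp1a1 call was lost without C57BL6/J array 2 or 3 or without C3H/HeJ array 1. Both strains lay below their untreated Cyp1a1 values, which were 6.77 to 7.24 in C57BL6/J and 5.97 to 6.26 in C3H/HeJ. Among ciliated cell genes, Dynlrb2, a dynein light chain, was at 9.44, 9.76 and 9.94 in irradiated C57BL6/J against 8.72, 8.33 and 9.03 in irradiated C3H/HeJ (difference 1.02 ± 0.19), and Tekt1, a protein of the axoneme, was at 6.64, 6.75 and 6.94 in irradiated C57BL6/J against 5.84, 5.68 and 5.81 in irradiated C3H/HeJ (difference 1.00 ± 0.17). Neither gene overlapped between the strains, as in 2155 of the 2241 irradiated calls. Alveolar genes hardly separated the strains, where 18.1% of all genes were called. Of 16 type 2 cell genes, 1 was higher and 1 lower (median 0.10), and of 14 type 1 cell genes, 1 was higher and 2 lower (median -0.08). The 2 type 1 genes that were lower were Krt7 (difference -0.78 ± 0.18) and Aqp5, a water channel (difference -0.56 ± 0.12).

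**Figure D5:**
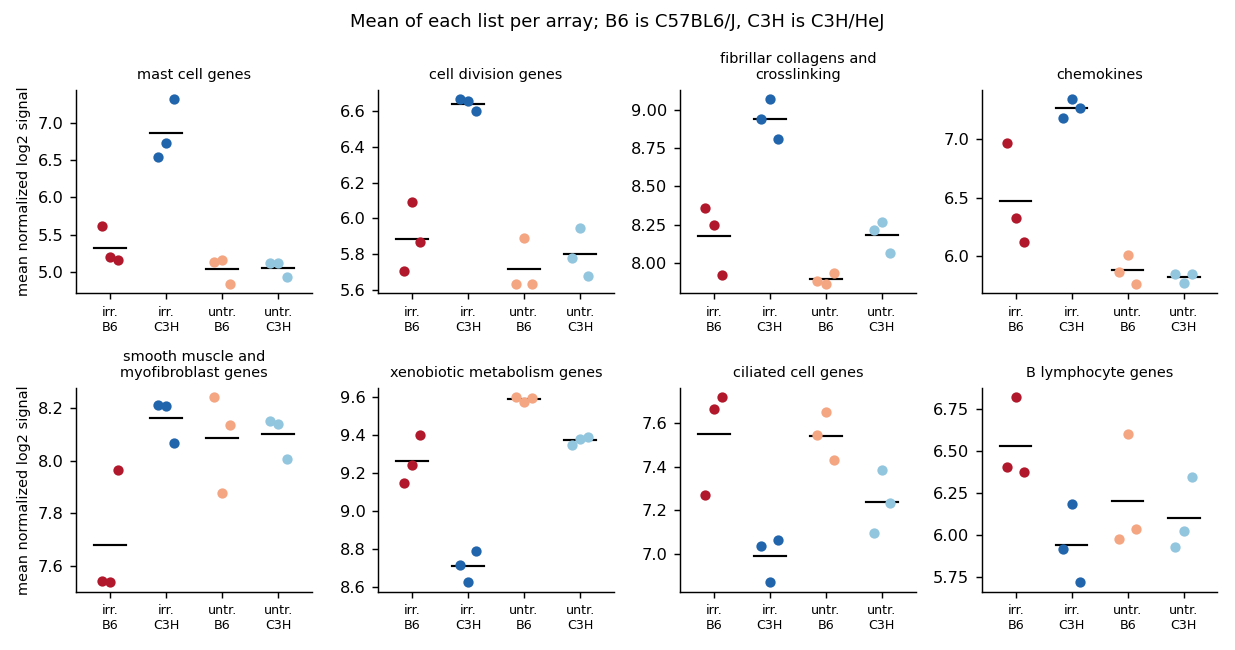
Mean normalized log2 signal of 8 gene lists in each array (points) with the mean of the 3 arrays (line). From left to right in each panel, the groups are irradiated C57BL6/J, irradiated C3H/HeJ, untreated C57BL6/J and untreated C3H/HeJ. The irradiated strains do not overlap in any of the 8 panels, which were chosen from more lists. Means of other lists overlap, as for macrophage genes (7.68 to 8.88 in irradiated C57BL6/J, 8.69 to 8.98 in irradiated C3H/HeJ). Those of endothelial genes do too (8.16 to 8.67 and 8.61 to 8.69). Chemokine means run from 6.12 to 6.97 in irradiated C57BL6/J and from 7.18 to 7.34 in irradiated C3H/HeJ.

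Among the C57BL6/J lungs, array 1 was most often the one nearest to C3H/HeJ. Of the 1182 genes called lower in C57BL6/J, array 1 was the highest of its group for 556, array 2 for 381 and array 3 for 245. Of the 1059 genes called higher, array 1 was the lowest of its group for 575, array 2 for 280 and array 3 for 204. Among C3H/HeJ lungs, array 3 was the nearest to C57BL6/J for 534 of the 1182 and for 514 of the 1059. The lists show this by array: the chemokine mean was 6.12 to 6.97 over irradiated C57BL6/J arrays and 7.18 to 7.34 over irradiated C3H/HeJ arrays, and array 1 had the value of 6.97.

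Some large differences were also present in untreated lung. Rpgrip1, known for its role in photoreceptor cilia, was at 9.61, 9.67 and 9.92 in irradiated C57BL6/J lungs, against 4.65, 4.24 and 4.73 in irradiated C3H/HeJ lungs, a difference of 5.19 ± 0.20 that was 36.5-fold. In untreated lung its difference was also 5.19. Tmem87a, a membrane protein, was at 3.88, 3.55 and 3.75 in irradiated C57BL6/J against 7.94, 7.92 and 8.25 in irradiated C3H/HeJ (difference -4.31 ± 0.37, untreated -3.43). Ang (angiogenin), Azgp1 and Trim30d were higher by 3.12, 2.82 and 2.60, beside untreated differences of 3.05, 2.56 and 3.29. Trim34a was higher by 3.46, although its other probe set differed by -0.97, so its direction is uncertain. Glo1 (glyoxalase 1) and Nnt, which C57BL/6J is known to carry in a damaged form, differed by -1.30 and -1.16 in irradiated and by -1.17 and -1.42 in untreated lung. Tlr4, in which C3H/HeJ is known to carry a missense change, differed by -0.78 in irradiated lung, a call lost without C3H/HeJ array 1 or 3 or without C57BL6/J array 3. For such genes a difference in sequence under the probes and a difference in RNA level cannot be told apart.

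Other genes had a strain difference in irradiated lung that was absent, smaller or reversed in untreated lung. Cyp26b1, which breaks down retinoic acid, was at 7.72, 7.63 and 6.70 in irradiated C57BL6/J lungs, against 4.21, 4.86 and 5.31 in irradiated C3H/HeJ lungs (difference 2.56 ± 0.42, untreated -0.02). Lrat, which stores retinol as esters, was at 9.08, 10.18 and 9.58 in irradiated C57BL6/J against 8.10, 8.36 and 7.88 in irradiated C3H/HeJ (difference 1.5 ± 0.28, untreated -0.38). Ptprr, a tyrosine phosphatase, was at 7.73, 6.92 and 6.78 in irradiated C57BL6/J against 5.18, 4.91 and 4.89 in irradiated C3H/HeJ (difference 2.15 ± 0.29, untreated 0.31). Chl1, a neural cell adhesion molecule, was at 5.99, 4.33 and 4.71 in irradiated C57BL6/J against 7.23, 7.69 and 7.79 in irradiated C3H/HeJ (difference -2.56 ± 0.35, untreated 0.27). Hal, which degrades histidine, was at 2.97, 3.33 and 2.90 in irradiated C57BL6/J against 6.34, 6.48 and 6.67 in irradiated C3H/HeJ (difference -3.43 ± 0.17, untreated -1.23). In each of these 5 genes the irradiated strains did not overlap, as in 2155 of the 2241 irradiated calls. For the largest irradiated differences that was a condition of being named. For Cyp26b1 and Lrat, irradiated C3H/HeJ lay below untreated C3H/HeJ, at 6.07 to 6.56 and 9.22 to 9.55. For Ptprr, Chl1 and Hal, 1 irradiated strain lay above its untreated lungs, C57BL6/J for Ptprr and C3H/HeJ for the other 2.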

How the data were processed

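RNA from mouse right lung had been hybridized to 1-colour oligonucleotide arrays, 3 per group, and 18 arrays in 6 groups entered the fit. The authors deposited linear signal intensities that MAS5 had produced, per the submitters' processing notes, and the version is not given in the sources used here. Each value was taken as log2(signal + 7), quantile-normalized over 18 arrays, and tested with limma 3.58.1 in R 4.3.3 as contrasts of group means on 12 residual degrees of freedom, with Benjamini-Hochberg adjustment over all genes and a threshold of 0.05. The pseudocount makes differences of dim genes too small. Of 45101 probe sets, 34958 had 1 gene symbol, 932 had several and 9211 had none in the platform annotation, and 34754 were matched to RefSeq by gene ID. The 25726 probe sets above the overall median signal in at least 3 arrays were kept. Each of the 12405 genes was represented by 1 probe set, its brightest on average over all arrays. Arrays carry no depth, and their number limits the precision.

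Genes were named by rule. The first were the largest called differences in irradiated lung, taken only from genes whose irradiated arrays did not overlap. Others led the test between irradiated and untreated differences or the calls in untreated lung. The rest were the leading called members of each list and a fixed set of markers. Non-overlap held for 2155 of the 2241 irradiated calls, so it adds no support to a called gene. A few further genes were named after their values were seen, namely Ccnb2, Cma1, Hdc, Il6ra, Ogn, Fcer1a, Ms4a2, Adipoq, Retn, Cidec, Hmox1, Hpgd, Per1 and Dbp. The members and lists were chosen with earlier results of these data known. Some genes are not analysed here. Alternatives were no scaling or median centring of arrays, pseudocounts of 1 and 32, no filter or one of 6 arrays, the mean of a gene's probe sets, a fit on the groups compared alone, a replicate block, leaving out each array, the A/J arrays or the 3 arrays high in squamous keratins. The fit was tested on simulated data with known changes. Same-numbered arrays did not deviate together (correlations of -0.14, 0.01 and -0.05 among irradiated arrays), so the numbers were not treated as pairs. Promoters came from RefSeq on GRCm38.p6.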

Additional observations from a re-analysis of the deposited data

Results flagged for a closer look

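The test of the irradiated against the untreated strain difference was passed by 33 of the 149 genes named by rule. Each value below is the irradiated difference minus the untreated one on the log2 scale, C57BL6/J minus C3H/HeJ in both. Among inflammatory genes it was -3.80 for Il6, -2.22 for Il1b, -1.51 for Socs3, -2.02 for Ccl7, -2.92 for Ccl24, -2.70 for Saa3, -1.80 for Serpina3n, -1.06 for Mgl2 and -2.04 for Ifi202b. The tryptases Tpsab1 and Tpsb2 had -2.92 and -2.95. Among genes of matrix and its turnover it was -3.23 for Timp1, -2.59 for Adamts4, -2.15 for Mmp8, -1.28 for Col18a1 and -1.35 for Ccn1, a matricellular protein. Des had -1.21, the spindle gene Nusap1 -1.35, and the vessel genes Selp and Vwf -1.65 and 1.23. The part of uneven skeletal muscle RNA in the value of Des was not tested. The antibody genes Ighm and Igkv6-20 had 2.77 and 2.35. The remaining values already described were 2.58 for Cyp26b1, 1.87 for Lrat, 1.85 for Ptprr, -2.83 for Chl1 and -2.20 for Hal.

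For 6 genes the untreated difference was called and was larger than, or opposite to, the irradiated one. Ankrd63 had -2.81, with an untreated difference of 3.12 and an irradiated one of 0.31. Sox11, a transcription factor, had -1.88, with 3.64 in untreated and 1.76 in irradiated lung. The clock genes Per2 and Arntl had -1.51 and 2.14. Acaa1b, an enzyme of peroxisomal fat oxidation, had 2.49, and 1600014C23Rik had 2.21. The 3 arrays high in squamous keratins include untreated C57BL6/J arrays 1 and 3. Leaving them out leaves 1 array in that group, so only the size of the differences is read there. All 33 kept their sign there and 31 stayed within 1.5 times of their value.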

How the results depend on the processing

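Of 149 named genes, 133 were called in irradiated lung. Of these, 67 stayed called in the same direction under every alternative run, 118 without irradiated C3H/HeJ array 3, 119 with median centring and 89 with no scaling. Counts of calls moved by over 1.5 times in these cases. With no scaling the irradiated count was 622 and the untreated count 447, and with median centring the untreated count was 798. A replicate block, for numbers that did not pair the arrays, gave 1014 irradiated, 497 untreated and 63 difference-of-differences calls, and 99 of the 133. With the 3 arrays of high squamous keratin left out, the untreated count was 419 and the difference-of-differences count 18. The difference-of-differences count was 323 with a pseudocount of 32 and 99 with no filter. Leaving out 1 array at a time gave 1389 to 2184 irradiated calls, 892 to 1080 untreated calls (892 without untreated C3H/HeJ array 1) and 87 to 373 difference-of-differences calls. The last ranged over 112 and 103 without irradiated C57BL6/J arrays 2 and 3, 104 and 87 without irradiated C3H/HeJ arrays 1 and 2, 92 without untreated C57BL6/J array 1, and 90 and 122 without untreated C3H/HeJ arrays 1 and 3. Signs turned for these irradiated differences. With no scaling Ahr was at -0.33, Pecam1 at -0.28 and Sox11 at -0.045. With median centring Ahr was at -0.20 and Pecam1 at -0.15. The median of all genes was -0.33 with no scaling and -0.19 with median centring, against -0.05 in the main run. Under each scaling a gene's brightest probe set was chosen anew. H2-D1 was at -0.63 over the mean of its probe sets. Over the single arrays left out, Ahr ran from -0.027 to 0.070, Ankrd63 from -0.019 to 0.57, Arg1 from -1.56 to 0.54, Kit from -0.48 to 0.045, Mmp12 from -0.60 to 0.58, Pecam1 from -0.073 to 0.28, S100a8 from -0.11 to 0.090, Sprr3 from -0.55 to 0.11 and Xist from -0.35 to 0.016. Of these genes only H2-D1 and Sox11 were called. The cause of these changes was not tested, apart from the fewer arrays that leaving one out implies. Of the 2241 irradiated calls, 1001 had other probe sets, 1753 in all, of which 79.92% had the same sign.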

Other observations

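Clock genes separated the strains more in untreated than in irradiated lung. Of 18 tested, 3 were higher and none lower in irradiated C57BL6/J (median 0.28), and 11 were higher and 1 lower in untreated C57BL6/J (median 0.87). The difference itself was called for 6 of them, 1 higher and 5 lower. Per2, a repressor of the clock, was at 7.36, 7.38 and 7.55 in irradiated C57BL6/J and 7.01, 6.92 and 7.02 in irradiated C3H/HeJ lungs, against 7.46, 7.53 and 7.78 in untreated C57BL6/J and 5.62, 5.53 and 5.75 in untreated C3H/HeJ lungs. Untreated C3H/HeJ alone was low. Dbp and Per1, which the clock also drives, had difference-of-differences values of -1.70 and -1.38. Glucocorticoid-responsive genes were 5 higher and 3 lower of 16 in irradiated lung (median 0.03) and 8 higher and none lower in untreated lung (median 0.72). The labels used here give no time of day.

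Adipose genes were 3 higher and none lower of 6 in irradiated C57BL6/J lung (median 0.65), and 2 of the 6 differences were below 0. The list mean overlapped between the strains, at 6.24 to 6.62 in irradiated C57BL6/J arrays and 5.46 to 6.39 in irradiated C3H/HeJ arrays. It was 6.14 to 6.99 in untreated C3H/HeJ arrays. Adipoq (adiponectin) differed by 1.54, Retn (resistin) by 1.27 and Cidec, a lipid droplet protein, by 1.03. Hmox1, which breaks down haem, was at 7.16, 6.11 and 6.05 in irradiated C57BL6/J lungs and 8.22, 8.29 and 8.62 in irradiated C3H/HeJ lungs, a difference of -1.94 ± 0.33. Hpgd, which inactivates prostaglandins, was at 9.90, 10.61 and 10.87 in irradiated C57BL6/J lungs and 8.74, 8.77 and 7.96 in irradiated C3H/HeJ lungs, a difference of 1.97 ± 0.40. Neither gene overlapped between the irradiated strains, as in 2155 of the 2241 irradiated calls.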
